A study of Mus musculus with 13 samples.

Results

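The genes described here are 32 genes whose transcripts mark a cell that copies its DNA (S phase) or prepares and carries out division (G2 and mitosis). They were taken by gene symbol from a given list, and all 32 were found among the 16204 genes of the deposited files. By their known roles 13 are S phase genes (Pcna, Mcm2 to Mcm7, Rrm1, Rrm2, Tyms, Tk1, Cdca7 and 2810417H13Rik, which RefSeq calls Pclaf), 16 are G2/M genes (Mki67, Top2a, Cdk1, Ccnb1, Ccnb2, Ccna2, Birc5, Aurka, Aurkb, Cenpa, Cenpe, Ube2c, Cdca3, Cks2, Hmgb2 and Tmpo) and 3 are linked to growth without belonging to a single phase (H2afz, Stmn1 and Tubb5). They were followed through 13 libraries of single cells from the mouse small intestine. The list was not chosen by a measured value, but it was proposed with earlier results of the same data in view.

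All mice were, per the labels, Lgr5-CreERT2 C57Bl6/J animals crossed with a Rosa26LSL-YFP reporter strain. In such mice an inducible Cre recombinase acts in cells that use the Lgr5 promoter, the stem cells at the base of the crypts, and switches on a yellow fluorescent protein that their offspring inherit; cells with the mark are called traced. The groups were traced cells after 5 days (5 libraries), traced CD24+ cells after 3 weeks (1), a library labelled as non-traced CD24+ control cells after 3 weeks (1), traced CD24+ cells after 8 weeks (3), traced cells without the CD24 gate after 8 weeks (1) and non-traced CD24+ control cells after 8 weeks (2). CD24 is a surface protein used for sorting. The labels do not give the age of the mice or say whether replicates came from separate animals, so p-values measure the spread between these libraries, which may be technical. CEL-seq, the method used, counts transcripts by molecular barcodes at their 3' ends; levels below are transcripts of a gene per 10000 transcripts of all genes.

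The intestinal epithelium renews itself from crypt stem cells, whose daughters divide several more times before they become absorptive enterocytes or secretory cells. Before S phase, E2F factors switch on the genes for the replicative helicase (Mcm2 to Mcm7), for the sliding clamp that holds the polymerase on DNA (Pcna) and for nucleotide supply (Rrm1, Rrm2, Tyms and Tk1). Later, a complex that binds the CHR element together with NF-Y at CCAAT boxes switches on the genes for the mitotic kinases, cyclins and centromere proteins. Paneth, tuft, goblet and enteroendocrine cells and enterocytes are the mature cells of this tissue, and mature cells have usually left the cell cycle.

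The stretches of DNA before the start sites of many of these genes carry the letters by which the S and the G2/M genes are known to differ. A few are shown, all from genes that have such matches and to which the results below return. RefSeq (GRCm38.p6) gave a promoter for 28 of the 32 genes, from 250 bases before to 50 after the start. The letters searched, on both strands, were TTCCCGC and TTGGCGC for an E2F site, TTTGAA and TTCGAA for a CHR element and CCAAT for a CCAAT box; an E2F match on the reverse strand (GCGCCAA) can share its end with a CCAAT box. The 200 bases before the start are printed 5' to 3' in the direction of the gene, with matches in capitals. Those of Mcm5 and Mcm6, 2 helicase subunits, each hold 2 E2F matches:
Mcm5 (chr8:75109309-75109508, plus strand): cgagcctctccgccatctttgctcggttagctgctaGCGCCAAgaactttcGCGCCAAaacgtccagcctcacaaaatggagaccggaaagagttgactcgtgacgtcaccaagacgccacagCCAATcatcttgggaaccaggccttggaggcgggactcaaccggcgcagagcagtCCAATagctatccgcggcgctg
Mcm6 (chr1:128359706-128359905, minus strand): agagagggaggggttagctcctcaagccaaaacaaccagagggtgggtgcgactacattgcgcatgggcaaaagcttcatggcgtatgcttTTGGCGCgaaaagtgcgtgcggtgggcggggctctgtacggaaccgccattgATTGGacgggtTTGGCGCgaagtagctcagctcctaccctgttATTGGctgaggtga
Those of Mki67, Top2a, Cdk1 and Ube2c hold CHR and CCAAT matches, and those of Mki67 and Cdk1 an E2F match as well. In Ube2c a pair of CCAAT boxes on opposite strands overlap in CCAATTGG:
Mki67 (chr7:135716380-135716579, minus strand): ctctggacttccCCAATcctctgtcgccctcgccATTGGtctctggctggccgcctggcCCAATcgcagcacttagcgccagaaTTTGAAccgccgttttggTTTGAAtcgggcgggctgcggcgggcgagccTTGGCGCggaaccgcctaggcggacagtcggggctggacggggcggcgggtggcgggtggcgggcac
Top2a (chr11:99024190-99024389, minus strand): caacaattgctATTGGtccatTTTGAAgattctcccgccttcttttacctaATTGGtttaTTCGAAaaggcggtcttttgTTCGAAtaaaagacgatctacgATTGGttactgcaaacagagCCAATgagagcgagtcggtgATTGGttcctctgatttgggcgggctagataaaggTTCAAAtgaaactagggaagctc
Cdk1 (chr10:69352913-69353112, minus strand): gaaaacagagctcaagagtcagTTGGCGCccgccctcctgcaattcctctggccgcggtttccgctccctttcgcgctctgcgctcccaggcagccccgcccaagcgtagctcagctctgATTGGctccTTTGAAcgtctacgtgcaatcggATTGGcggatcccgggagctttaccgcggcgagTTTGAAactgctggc
Ube2c (chr2:164769729-164769928, plus strand): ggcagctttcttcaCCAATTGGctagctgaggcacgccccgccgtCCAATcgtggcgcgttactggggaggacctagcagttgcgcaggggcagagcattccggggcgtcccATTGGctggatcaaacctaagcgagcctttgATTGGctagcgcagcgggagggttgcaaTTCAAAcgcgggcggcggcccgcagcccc
An E2F match lay in 7 of 12 S phase promoters (58.3%), in 3 of 14 G2/M promoters (21.4%) and in 6.93% of the promoters of all 27025 genes in the table. The S phase promoters without an E2F match were those of Pcna, Mcm2, Rrm2, Tyms and Tk1. A CHR match together with a CCAAT box lay in 2 of 12 S phase promoters (16.7%), in 9 of 14 G2/M promoters (64.3%) and in 7.7% of all promoters. The G2/M promoters without a CHR match were those of Ccnb1, Birc5, Cenpe, Cks2 and Tmpo. A CHR match with or without a CCAAT box lay in 19.4% of all promoters, and a CCAAT box in 75.0% of the S phase, 92.9% of the G2/M and 37.9% of all promoters. A match is a description of the letters and not a measured binding site.

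The libraries held 421675 to 1385266 transcripts. Barcodes with at least 3000 transcripts were kept, which left 892 cells of 1248, with library medians of 5412 to 14458 transcripts per cell. The same 96 barcode numbers recur in all 13 libraries as well labels. Cells were placed in classes by summed levels of marker genes, none of which is among the 32 genes: 242 were stem-like, 153 tuft-like, 108 enteroendocrine-like, 88 goblet-like, 60 Paneth-like and 35 enterocyte-like, 34 passed more than a single cut, and 131 passed none. These classes are ranges of a marker score, and the stem range has no gap at its border: 182 cells lay below its cut and within a factor of 2 of it. The stem-like cells had a median of 23.1 stem marker transcripts per 10000, against 5.36 in Paneth-like, 5.05 in tuft-like, 3.31 in enteroendocrine-like and 4.6 in unclassed cells, and Lgr5 itself stood at 1.63 per 10000 in stem-like and at 0.0437 in unclassed cells. The other 41 cells stand apart: they are the cells at barcodes 49 to 96 of 5-day replicate 4, where the goblet genes Zg16, Fcgbp and Tff3 and the hormone gene Ghrl were found in 100% of cells. The library labelled 3-week non-traced CD24+ bears a name with YFP and without CD24 in the authors' combined table, so its label is in doubt, and no test includes it. The sex of the mice differed too: transcripts of the Y-linked Ddx3y reached 0.197 to 0.424 per 10000 at 5 days, and no later library had any. Sex and time therefore cannot be told apart in any comparison of 5 days with 8 weeks.

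The 32 genes stood high in stem-like and unclassed cells, at an intermediate level in goblet-like cells and low in the other mature classes. The 13 S phase genes together made up a median of 21.7 transcripts per 10000 in stem-like cells (14.03 to 27.8 over 11 libraries) and the 16 G2/M genes 37.3 (23.2 to 50.6). In the unclassed cells the sums were 19.4 (10.3 to 26.2) and 40.2 (31.7 to 48.9) over 9 libraries, so both overlapped those of the stem-like cells. Goblet-like cells had 9.08 (2.97 to 21.2) and 18.4 (3.49 to 42.9) over 10 libraries, the widest range of any class. The S phase sums were 5.15 (3.48 to 15.2) in Paneth-like, 5.75 (1.51 to 7.12) in tuft-like, 2.67 (1.57 to 11.9) in enteroendocrine-like and 3.98 (1.71 to 6.21) in enterocyte-like cells, over 8, 7, 7 and 4 libraries. The G2/M sums were 4.91 (1.26 to 15.5), 4.32 (2.70 to 18.4), 4.71 (1.57 to 20.6) and 3.72 (2.38 to 15.3) in the same order. These 4 mature classes overlapped each other in both sums. In the G2/M sum all their libraries lay below every stem-like library. In the S phase sum 1 of them, Paneth-like cells of a 5-day library, lay above the lowest stem-like value, found in the library with the doubtful label.

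**Figure D1:**
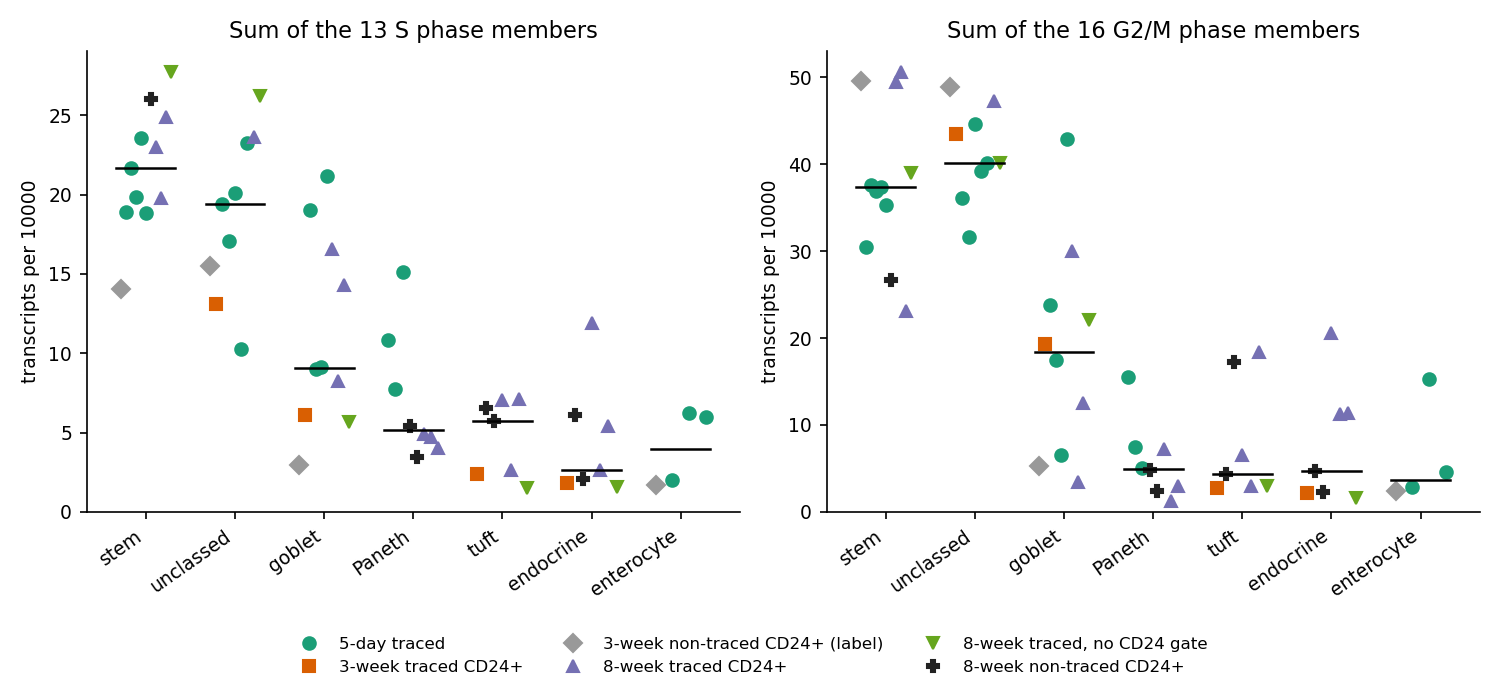
Summed level of the S phase and of the G2/M genes (transcripts per 10000, y axis) in each class of cells (x axis), with 1 point per library that held at least 3 cells of the class, shaped and coloured by group, and a line at the median of the libraries. Stem-like and unclassed libraries lie at the top of both plots, with medians of 21.7 and 19.4 for the S phase and 37.3 and 40.2 for the G2/M genes, goblet-like libraries spread between, and the medians of the other classes lie near the bottom.

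Gene by gene, the classes differed in how far each phase was down. Over all cells of a class pooled, the median S phase gene stood at 28.8% of its stem-like level in Paneth-like, 23.3% in tuft-like and 31.8% in enteroendocrine-like cells, and the median G2/M gene at 14.5%, 18.7% and 26.6%. Aurka, the kinase that organises spindle poles, was the lowest G2/M gene in Paneth-like cells (5.78% of stem-like), Ccna2, a cyclin of S phase and G2, in tuft-like cells (10.5%), and Cenpe, a kinetochore motor, in enteroendocrine-like cells (9.68%). Tmpo, which encodes a protein of the nuclear envelope, was the highest G2/M gene in all 3, at 28.9%, 38.6% and 45.1%. Paneth-like values per 10000 are lowered for every gene because the Paneth markers themselves took a median of 4646 of each 10000 transcripts. In goblet-like cells the medians were 55.1% and 50.7%. In the 41 cells set apart, all from 5-day replicate 4, they were 98.9% and 58.6%. The unclassed cells were at 99.1% and 100.8% by median, but not gene by gene: Rrm2, the regulated subunit of ribonucleotide reductase, stood at 212% of its stem-like level there and Cdca7, a chromatin protein gene, at 36.2%.

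Counted by cells, with the 41 cells set apart left out of the order, stem-like and unclassed cells again stood highest. Goblet-like cells stood between them and the other mature classes, whose order among themselves differed from that by transcripts. Each cell was thinned to 3000 molecular barcodes (887 cells were deep enough, 5 were left out: 3 Paneth-like, 1 goblet-like, 1 enteroendocrine-like), and cells with at least 3 genes of a phase were counted. At least 3 of the 13 S phase genes were found in 77.3% of stem-like cells (exact 95% interval 71.5 to 82.4%) and at least 3 of the 16 G2/M genes in 72.3% (66.2 to 77.9%). Unclassed cells reached 70.99% (62.4 to 78.6%) and 76.3% (68.1 to 83.3%). The 41 cells set apart had a median of 5 S phase and 5 G2/M genes per thinned cell, against 4 and 6 in stem-like cells. Goblet-like cells gave 34.5% (24.6 to 45.4%) for each phase, and Paneth-like cells 22.8% (12.7 to 35.8%) and 26.3% (15.5 to 39.7%). Part of the 3000 barcodes of a Paneth-like cell falls on Paneth markers, which leaves fewer for other genes. Tuft-like cells gave 11.1% (6.61 to 17.2%) and 10.5% (6.10 to 16.4%), and enteroendocrine-like cells 11.2% (5.93 to 18.8%) and 15.9% (9.54 to 24.2%). Enterocyte-like cells, taken as the comparison because mature enterocytes do not divide, gave 0 of 35 cells for S phase, with an exact upper limit of 10.003%, and 14.3% (4.81 to 30.3%) for G2/M. The G2/M intervals of tuft-like, enteroendocrine-like, Paneth-like and goblet-like cells all overlap that of enterocyte-like cells. For S phase, the intervals of tuft-like and enteroendocrine-like cells reach below the enterocyte-like upper limit of 10.003%. Those of Paneth-like and goblet-like cells do not. All intervals cover counting error only, over cells pooled across libraries. In 5-day replicates 1 to 5 there were 9, 2, 7, 0 and 3 enterocyte-like cells. The library with the doubtful label held 10 more. The same 5-day libraries held 0, 0, 1, 0 and 0 tuft-like and 2, 2, 2, 1 and 2 enteroendocrine-like cells. The comparison class thus largely differs from tuft-like and enteroendocrine-like cells in library, time, gate and sex too. The part of this in the overlaps was not tested. How much of the enterocyte-like signal is free RNA was not tested: 3 of the 35 cells held 55.98% of the class's G2/M transcripts, and the highest had all 16 G2/M genes. Median depths before thinning were 18184 transcripts in Paneth-like, 8907 in stem-like, 8212 in enterocyte-like, 7487 in tuft-like and 6619 in enteroendocrine-like cells.

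**Figure D2:**
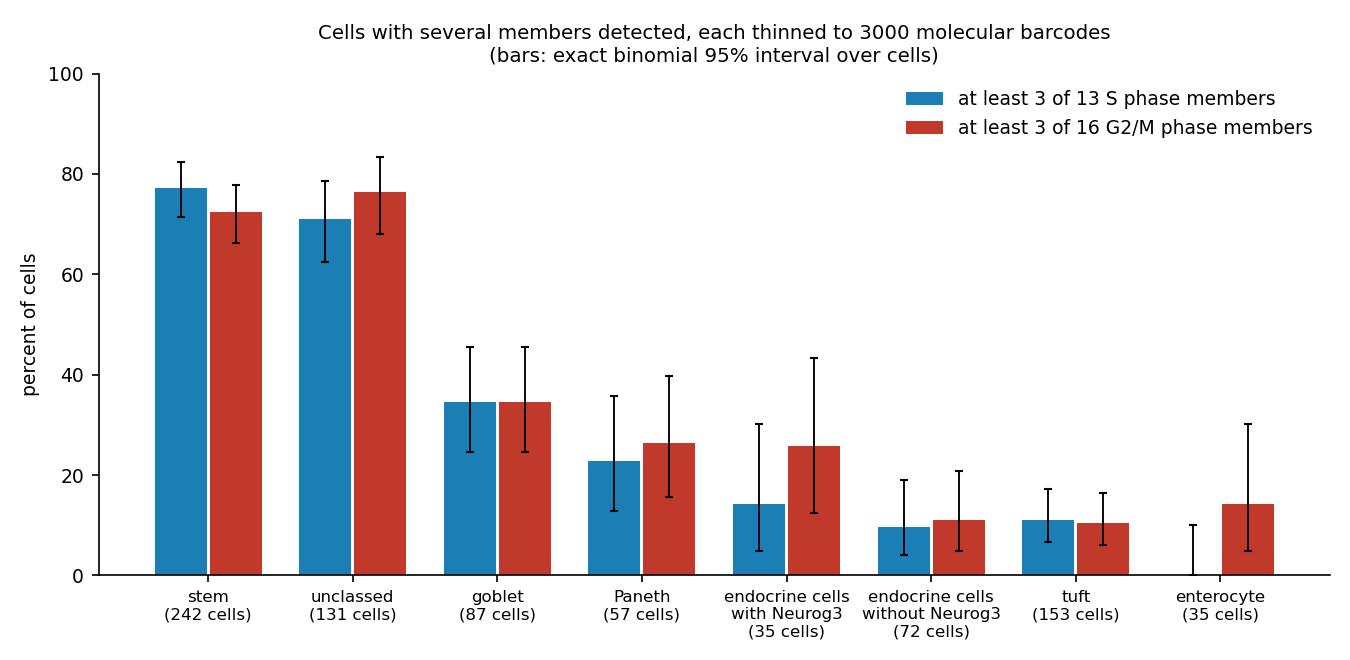
Percent of cells (y axis) of each class (x axis) with at least 3 of the 13 S phase genes and with at least 3 of the 16 G2/M genes after thinning every cell to 3000 molecular barcodes; bars start at 0 and error bars are exact 95% binomial intervals over cells. Stem-like (77.3% and 72.3%) and unclassed cells (70.99% and 76.3%) stand far above Paneth-like (22.8% and 26.3%) and tuft-like cells (11.1% and 10.5%); enteroendocrine-like cells are split into those with Neurog3 (14.3% and 25.7%) and those without (9.72% and 11.1%).

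After thinning, 58.3% (51.8 to 64.5%) had at least 3 genes of each phase, 19.01% passed only for S phase, 14.05% passed only for G2/M, and 2 of 242 cells had none of the 29 phase genes. Within these cells, G2/M genes rose and fell together from cell to cell: the median Spearman correlation over the 120 pairs of G2/M genes was 0.31 (lowest 0.04, highest 0.51). Over the 78 pairs of S phase genes it was 0.07, and over the 208 pairs of an S phase and a G2/M gene it was -0.02. These are descriptions over sparse counts of cells that share libraries, and so carry no p. Of 5028 other genes found in at least 10% of thinned cells of all classes, the 10 most like the G2/M sum (mean of 13 within-library Spearman correlations over all kept cells) were Tuba1b (0.51), Ptma (0.44), Cdc20 (0.43), Hmgb1 (0.43), Plk1 (0.41), Incenp (0.40), Cdca8 (0.39), Kif11 (0.36), Ube2s (0.36) and Ran (0.34).

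The G2/M transcripts of the mature classes lay in few cells. The 10% of tuft-like cells with most of them held 71.6% of the class's G2/M transcripts, against 37.4% in stem-like and 35.5% in unclassed cells; the share was 78.8% in enteroendocrine-like, 57.7% in goblet-like and 55.4% in Paneth-like cells. The tuft-like cell with most G2/M transcripts held 200 of them, with all 16 genes detected, in a cell of 28390 transcripts that was deeper than 98.04% of tuft-like cells. Its stem marker level was 7.12 per 10000 and its tuft marker level 34.8, against class medians of 5.05 and 115. The enteroendocrine-like cell with most held 142, with all 16 genes, in 25384 transcripts, and was deeper than 98.1% of its class. Its stem marker level was 7.57 and its enteroendocrine marker level 125, against class medians of 3.31 and 656. Cells ranked 2 and 3 in this class had stem marker levels of 15.4 and 17.2, above the stem cut of 10. The top 3 Paneth-like cells stood at 12.9, 17.6 and 7.83 and the top 3 goblet-like cells at 8.52, 8.79 and 4.57. Tuft-like cells ranked 2 and 3 stood at 7.09 and 3.12. No doublet caller was run, and the part of doublets in such cells was not tested.

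Stem-like cells were compared with each mature class inside the same libraries, with the library as a block, so that both sides came from the same sort and library but not from cells of the same depth. In stem-like against Paneth-like cells (7 libraries, 149 and 47 cells), 26 of the 32 genes were higher in stem-like cells and none was lower, where 11.5% of the 7835 genes tested were called higher and 8.96% lower. All 16 G2/M genes, all 3 growth-linked genes and 7 of the 13 S phase genes passed. The median log2 difference was 1.92 for G2/M, 1.35 for growth-linked and 0.79 for S phase genes, against 0.22 for all genes. In every library 29 of the 32 were higher in stem-like cells, which 38.7% of all genes were too. Paneth cells make antimicrobial defensins in bulk, and the differences given are those after TMM scaling, which offsets a load of few very abundant transcripts. Scaled by plain totals, the median of all genes moved to 1.07 and all 32 passed, with medians of 2.75 and 1.66 for G2/M and S phase genes.

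Mki67, the classical proliferation antigen that coats mitotic chromosomes, stood at 3.14, 2.78, 2.71, 3.27, 3.57, 1.64 and 1.51 per 10000 in the stem-like cells of 5-day replicates 2, 3 and 5, 8-week traced CD24+ replicates 1, 2 and 3 and 8-week non-traced replicate 2. In the Paneth-like cells of the same libraries it stood at 1.11, 0.0908, 0.383, 0.727, 0, 0.0588 and 0. By these levels, which are not TMM-scaled, the stem-like values lie above all Paneth-like values (2.66 ± 0.80 against 0.34 ± 0.43, SD, n = 7 each, higher in 7 of 7). The Paneth-like levels are lowered by the load of Paneth markers, and whether the groups part without it was not tested. After TMM scaling the fitted log2 difference was 1.96 (SE 0.27, adjusted p = 2.54e-11). Cenpa, the histone variant that marks centromeres, had 350 transcripts in the stem-like and 11 in the Paneth-like sums (log2 2.86, SE 0.37, adjusted p = 8.97e-13). Top2a, the topoisomerase that untangles sister chromatids, differed by 1.76 (SE 0.24, adjusted p = 3.67e-12), Cdk1, the mitotic kinase, by 2.25 (SE 0.32, adjusted p = 5.89e-11), and its cyclin Ccnb1 by 2.06 (SE 0.39, adjusted p = 2.05e-06). Hmgb2, a chromatin protein, differed by 1.51 (adjusted p = 1.2e-12) and Ube2c, the enzyme that feeds ubiquitin to the anaphase-promoting complex, by 1.82 (adjusted p = 3.32e-13). The smallest adjusted p belonged to Tubb5, a tubulin gene (log2 1.66, adjusted p = 1.75e-15).

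The S phase genes were less uniform in this comparison. Pcna stood at 3.80, 3.02, 2.99, 2.61, 1.81, 3.90 and 3.56 per 10000 in stem-like and at 2.06, 0.817, 1.72, 1.21, 0.315, 0.647 and 0.767 in Paneth-like cells, in the same order of libraries. By these levels, which are not TMM-scaled, Pcna was higher in stem-like cells of each library. The lowest stem-like value, 1.81 in 8-week traced replicate 2, still lies below the Paneth-like 2.06 of a 5-day library (3.10 ± 0.74 against 1.08 ± 0.62). After TMM scaling the log2 difference was 0.69 (SE 0.22, adjusted p = 0.010). The 6 S phase genes that did not pass were Mcm2 (0.70), Mcm3 (0.76), Mcm4 (0.79, adjusted p = 0.098), Mcm5 (0.77, adjusted p = 0.0503), Rrm2 (0.99, SE 0.49, adjusted p = 0.147) and Tyms (0.54, SE 0.35, adjusted p = 0.299), with log2 differences all above 0. Rrm2 rests on 87 stem-like and 11 Paneth-like transcripts and Tyms, the enzyme that makes the thymine nucleotide, on 146 and 24. Paneth-like cells of the 5-day libraries had S phase sums of 7.76 to 15.2 and those of the 8-week traced CD24+ libraries 4.03 to 4.90, a difference that was not tested. With the marker cuts halved, which widens each class, 13 of the 32 passed (0 S phase, 10 G2/M and 3 growth-linked genes).

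Against tuft-like cells (5 libraries, 96 and 86 cells), all 32 genes were higher in stem-like cells, where 14.7% of 8132 genes were called higher and 14.4% lower. Tuft cells sense luminal signals such as parasites. Here the S phase genes differed as much as the G2/M genes, with median log2 differences of 2.00 and 1.93, against 1.31 for the growth-linked genes and 0.04 for all genes. Cdca7 stood at 4.90, 4.97, 3.66, 5.45 and 4.11 per 10000 in the stem-like cells of 8-week traced CD24+ replicate 1, the 8-week ungated library, traced CD24+ replicates 2 and 3 and non-traced replicate 2, and at 0.840, 0.751, 0.110, 0.836 and 0.488 in the tuft-like cells. The groups do not overlap (log2 2.96, SE 0.27, adjusted p = 1.15e-25). Mcm5 stood at 1.21, 1.17, 1.03, 1.59 and 1.51 against 0.262, 0, 0, 0.304 and 0.130, again without overlap (log2 2.89, SE 0.40, adjusted p = 1.75e-11). Stmn1, which encodes a protein that destabilises microtubules, differed by 2.19 (adjusted p = 1.43e-22) and Top2a by 2.13 (adjusted p = 1.68e-16). Pcna differed by 1.48 (adjusted p = 7.74e-08), Cdk1 by 2.23 (adjusted p = 1.36e-10), Ccnb1 by 2.14 (adjusted p = 4.22e-07), Cenpa by 1.13 (adjusted p = 6.47e-04) and Hmgb2 by 1.71 (adjusted p = 1.03e-13). The largest adjusted p values were those of Tyms (1.11, adjusted p = 0.0209), Aurka (1.91, adjusted p = 0.00162) and Rrm2 (1.88, adjusted p = 0.00156).

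In 25 of the 32 genes stem-like cells were higher in every library, against 16.6% of all genes, and Mki67 was among the 7 that were not. It stood at 3.27, 2.64, 3.57, 1.64 and 1.51 per 10000 in stem-like and at 0.262, 0, 0, 1.75 and 1.63 in tuft-like cells, so that stem-like cells were higher in 3 of 5 libraries (log2 1.56, SE 0.27, adjusted p = 1.14e-07). In the 2 libraries where they were not, 8-week traced CD24+ replicate 3 and non-traced replicate 2, the 3 tuft-like cells with most G2/M transcripts held 89.7% and 68.4% of the class's G2/M transcripts, out of 16 and 36 cells. The stem-like values of these libraries rest on 15 and 3 cells, and the tuft-like 0 of the ungated library on 3 cells. The other 6 of the 7 genes were Ccnb1, Birc5, Aurkb, Cenpa, Cdca3 and Cks2, all G2/M genes, and all 13 S phase genes were higher in every library. Without traced replicate 1, 25 of the 32 passed.

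Against enteroendocrine-like cells (5 libraries, 96 and 70 cells), 31 of 32 were higher in stem-like cells, where 15.4% of 7541 genes were called higher and 17.2% lower. The medians were 2.00 for S phase, 1.83 for G2/M and 1.39 for growth-linked genes, and -0.00 for all genes. Mcm7 stood at 2.35, 2.69, 2.15, 2.26 and 2.74 per 10000 in stem-like cells and at 0.751, 0.313, 0.354, 0.568 and 0.279 in enteroendocrine-like cells of the same libraries, without overlap (log2 2.24, SE 0.29, adjusted p = 4.17e-10). Cdca7 (2.10, adjusted p = 7.19e-11) and Stmn1 (1.96, adjusted p = 5.54e-10) had like values, and Cenpe rested on 117 transcripts against 4 (log2 3.40, SE 0.55, adjusted p = 3.69e-07). The gene that did not pass was Aurka, at 0.603, 0.751, 0.689, 0.266 and 0.274 against 0.450, 0, 0.443, 0.189 and 0 (log2 0.86, SE 0.44, adjusted p = 0.134), and Rrm2 (1.36, adjusted p = 0.0305) and Aurkb, the kinase of the chromosomal passenger complex (1.44, adjusted p = 0.0102), came next. Pcna (2.00), Mcm5 (2.17), Mki67 (1.78), Top2a (2.06), Cdk1 (2.02), Ccnb1 (1.97), Cenpa (2.17) and Hmgb2 (1.88) all passed with adjusted p of 2.88e-05 or less, and Tyms (1.46) with 0.00572. In every library 30 of 32 were higher in stem-like cells, against 17.3% of all genes. These 3 comparisons share stem-like cells of 4 libraries, so their likeness is not independent.

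**Figure D3:**
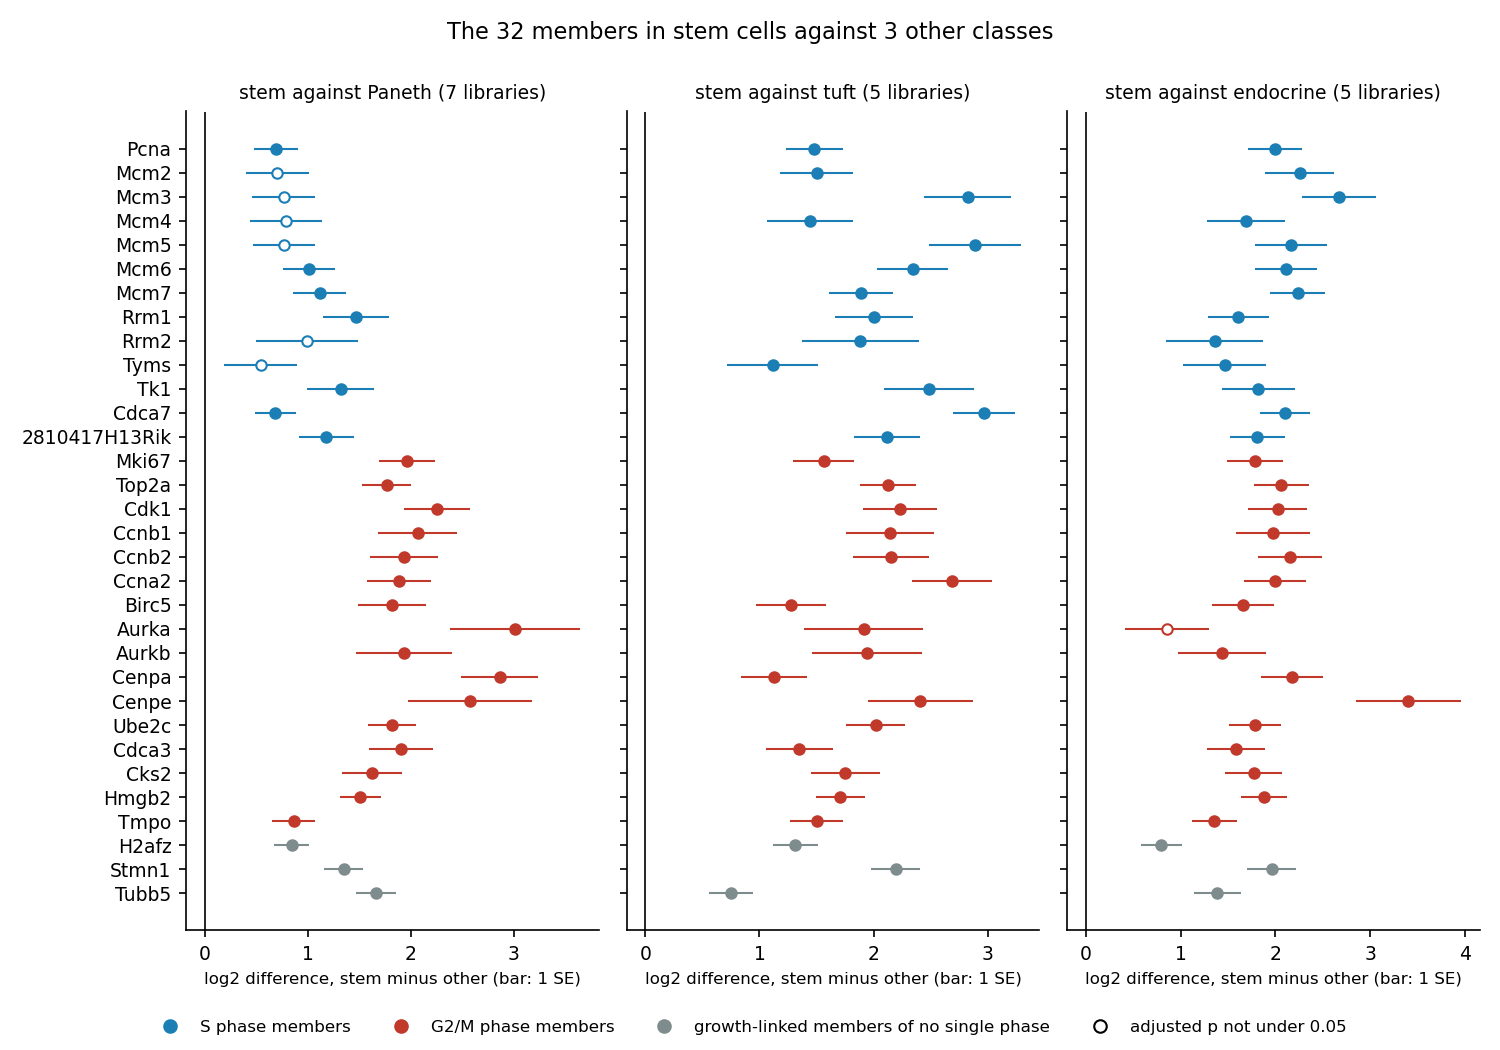
Log2 difference of each of the 32 genes between stem-like cells and Paneth-like, tuft-like and enteroendocrine-like cells of the same libraries (x axis, 0 is no difference; 1 row per gene, ordered by phase), with bars of 1 standard error on each side and open points for genes that did not pass. All differences lie above 0; open points are the 6 S phase genes against Paneth-like cells and Aurka against enteroendocrine-like cells.

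Other genes of the cell cycle were taken from lists of replication, spindle, G1 and inhibitor genes, and are read against the 11.5%, 14.7% and 15.4% of all genes called higher in stem-like cells against Paneth-like, tuft-like and enteroendocrine-like cells. Of 34 replication origin and fork genes, 10 of 32 tested were higher in stem-like than in Paneth-like cells, 25 of 32 than in tuft-like and 22 of 29 than in enteroendocrine-like cells, and none was lower. Of 48 spindle, kinetochore and cytokinesis genes, 33 of 46 were higher against Paneth-like and 37 of 40 against enteroendocrine-like cells, with none lower, and 36 of 46 against tuft-like cells, with 3 lower. Among those 3 were Bub3, a spindle checkpoint gene, at 2.06 per 10000 in stem-like and 8.41 in tuft-like cells (log2 -1.91, adjusted p = 1.505e-18), and the tubulin gene Tubb4b at 6.16 and 14.4 (log2 -1.13, adjusted p = 1.12e-08). Of 18 G1 cyclins, kinases and E2F factors, 5 of 11 tested were higher against Paneth-like, 7 of 13 against tuft-like, with 1 lower, and 5 of 8 against enteroendocrine-like cells. Ccnd1 and Ccnd2, the G1 cyclins that respond to growth signals, were higher in stem-like cells in all 3 comparisons, by 1.15 and 1.18 against Paneth-like, 1.56 and 2.17 against tuft-like and 2.64 and 1.53 against enteroendocrine-like cells.

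Among 18 genes that halt the cycle, some were lower in stem-like cells, a few were higher and others did not pass. Cdkn1a, which encodes the CDK inhibitor p21, stood at 0.20 ± 0.13 per 10000 in stem-like and at 15.3 ± 5.01 in enteroendocrine-like cells (SD, n = 5; log2 -5.78, SE 0.30, adjusted p = 1.28e-31), at 2.87 ± 0.70 in tuft-like (log2 -3.29, adjusted p = 6.15e-25) and at 1.06 ± 0.61 in Paneth-like cells (log2 -3.002, adjusted p = 3.73e-21). Cdkn1c, which encodes p57, was lower in stem-like than in enteroendocrine-like cells (log2 -6.48, adjusted p = 9.95e-28) and than in tuft-like cells (log2 -2.98, adjusted p = 3.81e-04). Of these genes 3 of 11 tested were lower and none higher in stem-like against Paneth-like cells, 3 lower and 2 higher of 14 against tuft-like, and 5 lower and 2 higher of 13 against enteroendocrine-like cells. Of all genes 8.96%, 14.4% and 17.2% were lower, and the median log2 differences of the list were 0.02, -0.21 and -0.41.

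At 8 weeks the sorted CD24+ cells could be compared between traced cells (3 libraries, 221 cells) and non-traced control cells (2 libraries, 147 cells). Summed over all cells, 9 of the 32 genes were higher in traced cells and none was lower, where 1.32% of the 10281 genes tested were called higher and 2.27% lower. The 9 were the S phase genes Cdca7, 2810417H13Rik, Mcm5 and Mcm7, the G2/M genes Cdk1, Hmgb2 and Tmpo, and H2afz and Stmn1. All 32 fitted differences lay above 0, with medians of 0.88 for S phase, 1.11 for G2/M and 0.66 for growth-linked genes against 0.01 for all genes, and in 20 of the 32 the groups did not overlap, against 16.4% of all genes. The count rests on single libraries: it was 0 without non-traced replicate 1, 3 without non-traced replicate 2, 1 without traced replicate 1 and 17 without traced replicate 3.

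Cdca7 stood at 2.58, 1.91 and 2.42 per 10000 in traced replicates 1, 2 and 3 and at 0.773 and 0.940 in non-traced replicates 1 and 2, without overlap (2.30 ± 0.35 against 0.86 ± 0.12; log2 1.46, SE 0.21, adjusted p = 0.00255). 2810417H13Rik, whose protein binds the Pcna clamp, stood at 1.75, 1.59 and 1.22 against 0.541 and 0.824 (log2 1.196, SE 0.23, adjusted p = 0.0128), and Cdk1 at 1.58, 1.23 and 0.615 against 0.344 and 0.448 (log2 1.58, SE 0.34, adjusted p = 0.0218). For Cdk1 and for Hmgb2 (6.20, 5.18 and 3.10 against 1.86 and 2.65; log2 1.11, adjusted p = 0.0349) replicate 3 was the lowest traced library and lay nearest to the non-traced ones. In the authors' combined table the names for traced replicates 2 and 3 and non-traced replicate 2 carry a II, those for replicate 1 do not, and these sets are here called rounds. Within each round Cdca7, Cdk1 and Hmgb2 were higher in every traced library than in the non-traced one, by the values just given. With the round as a block 7 of the 32 passed. In the main fit, without the block, Mcm5 (1.15, adjusted p = 0.0247) was among the 9 that passed. Rrm2 (1.25, adjusted p = 0.0988), Tyms (1.05, adjusted p = 0.116), Mki67 (0.94, adjusted p = 0.0689), Top2a (1.10, adjusted p = 0.0814) and Cenpa (1.12, adjusted p = 0.175) did not pass there. The genes with the largest adjusted p in that fit were Ccnb1 (0.86, adjusted p = 0.35), Pcna (0.51, adjusted p = 0.309) and Mcm2 (0.73, adjusted p = 0.222).

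The make-up of the sorted cells moved with this difference. Stem-like cells were 21.7 to 29.9% of the cells of the traced libraries and 0 and 4.76% of the non-traced ones, while tuft-like cells were 20 to 23.2% and 53.6 and 57.1%. Of 11 stem markers 5 were higher in traced cells and of 11 tuft markers tested 10 were lower. The part of this make-up in the result was not tested. Inside tuft-like cells alone, the S phase sum was 5.60 ± 2.55 per 10000 in traced (n = 3) and 6.17 ± 0.59 in non-traced libraries (SD, n = 2), and the G2/M sum 9.31 ± 8.10 and 10.8 ± 9.18. Both sums overlap between the groups. Summed over all kept cells, fewer dividing cells and less of these transcripts per cell cannot be told apart.

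Over all kept cells the 5-day libraries had S phase sums of 15.1 to 19.8 per 10000 and G2/M sums of 26.95 to 33.5. The 8-week traced CD24+ libraries had 11.7 to 14.5 and 13.5 to 28.4, and the 8-week library without the gate had 20.7 and 31.8, a single library whose values lie above all 3 gated ones. The 3-week traced CD24+ library, in which 46.8% of cells were goblet-like, had 5.18 and 13.7.

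**Figure D4:**
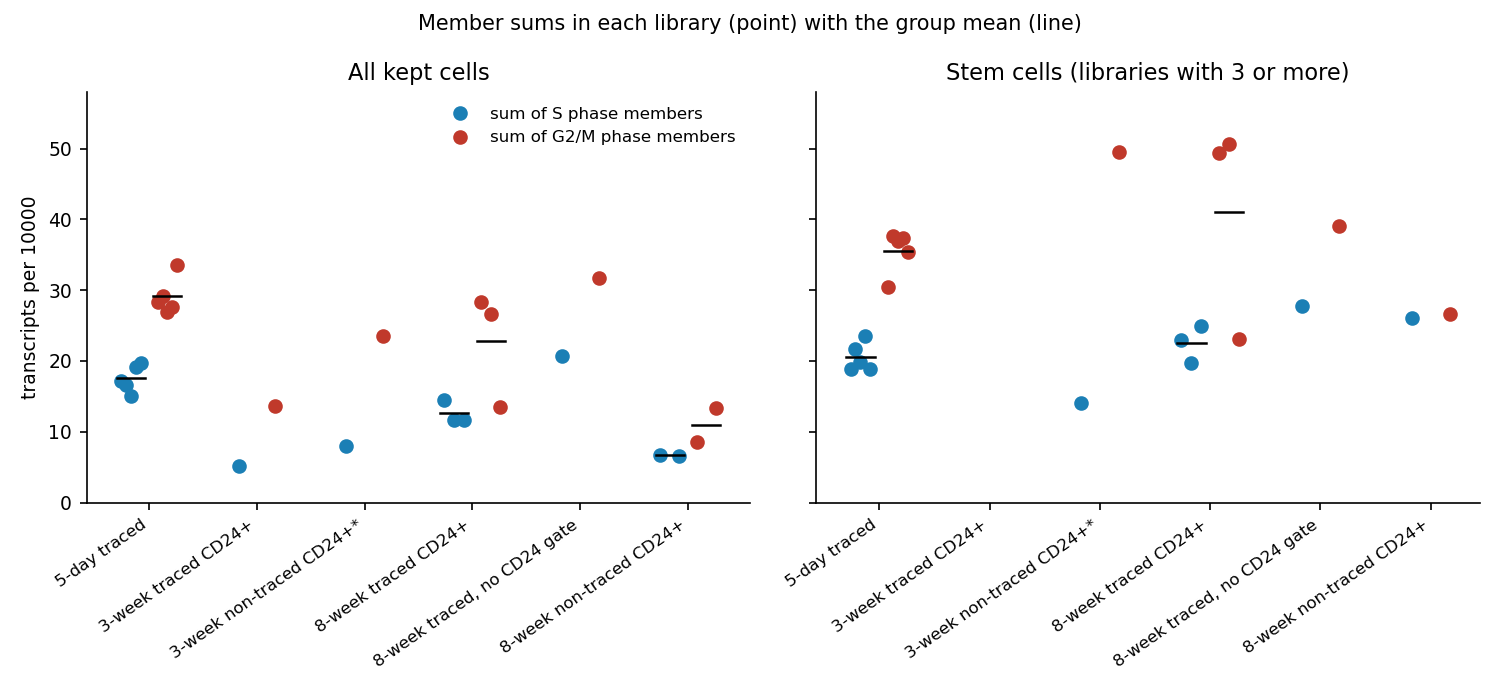
Summed level of the S phase and of the G2/M genes (transcripts per 10000, y axis) by group (x axis), over all kept cells on the left and over stem-like cells on the right, with 1 point per library and a line at the mean of groups with several. The asterisk marks the library whose label and name in the authors' combined table disagree; over all kept cells it stands at 7.93 and 23.6, above both 8-week non-traced libraries (6.64 and 6.68, and 8.61 and 13.4).

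Enteroendocrine cells make gut hormones and arise from progenitors that transiently express the transcription factor Neurog3. Among enteroendocrine-like cells of the 8-week CD24+ libraries (53 traced and 32 non-traced cells), 1 of the 32 genes, Ube2c, was higher in traced cells and none was lower, where 0.0941% of 5311 genes were called higher and 0.0188% lower. With the round as a block, a term added after seeing the data, 8 of the 32 were higher (1 S phase, 5 G2/M and 2 growth-linked genes, out of 42 of all genes higher and 52 lower), and Ube2c had an adjusted p of 7.84e-05. The level of Ube2c was 1.75, 1.68 and 1.42 per 10000 in the traced libraries and 0.269 and 0 in the non-traced ones (1.62 ± 0.18 against 0.13 ± 0.19; without the block, log2 2.98, SE 0.53, adjusted p = 0.0202). Of the other members, 17 were tested without passing and 14 had too few transcripts to be tested. Top2a, at 2.80, 0.797 and 1.61 against 0.449 and 0, gave a log2 difference of 2.47 (SE 0.60, adjusted p = 0.132), and Hmgb2, at 4.05, 2.66 and 2.27 against 1.17 and 0.698, 1.59 (SE 0.38, adjusted p = 0.127). The traced values of both lie above both non-traced values.

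For 12 of the 16 G2/M genes and for 0 of the 13 S phase genes every traced library lay above every non-traced one, against 8.53% of the 12950 genes with a transcript in these sums. Of the 12, 5 had too few transcripts to be tested, and in 6 of the 12 some traced library held 3 transcripts or fewer, down to 1 for Cenpa. Among tested genes the counts were 7 of 9 G2/M and 0 of 6 S phase genes, against 10.4%; genes enter the test partly through the group where they are high, so these counts are given as a description. The G2/M sum was 14.4 ± 5.39 per 10000 in traced and 3.47 ± 1.74 in non-traced enteroendocrine-like cells, and the S phase sum 6.67 ± 4.74 and 4.11 ± 2.84. Pcna stood at 1.70, 0.177 and 0.379 against 1.17 and 0.419 (log2 -0.07, adjusted p = 0.994), with Mcm7 (adjusted p = 0.986) and Rrm1, the other subunit of ribonucleotide reductase (adjusted p = 0.996), also at the far end. The difference between the phases was not itself tested. The 8-week traced library without the gate, with 5 such cells and in no test here, had a G2/M sum of 1.57, below both non-traced libraries. The 3 cells with most G2/M transcripts held 75.6%, 81.02% and 84.96% of them in traced replicates 1, 2 and 3. Ube2c did not pass without traced replicate 1 (adjusted p = 0.191), 2 (0.315) or 3 (0.0746), nor by DESeq2 (adjusted p = 0.158).

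Neurog3 transcripts were found in 23 traced enteroendocrine-like cells out of 53 and in 5 non-traced ones out of 32. Over all libraries the 35 enteroendocrine-like cells with Neurog3 had 10.3 S phase (Poisson 95% interval 9.19 to 11.6) and 17.7 G2/M transcripts per 10000 (16.2 to 19.3), and the 73 without had 5.57 (4.99 to 6.20) and 7.90 (7.21 to 8.66); these intervals cover counting error only. Among cells without Neurog3 the G2/M sum was 11.3 (9.93 to 12.8) in 30 traced and 2.67 (2.06 to 3.39) in 27 non-traced cells, and among cells with it 20.9 (18.9 to 23.1) in 23 and 11.8 (8.91 to 15.4) in 5 cells. By library these sums overlap in both parts: without Neurog3 they were 15.3, 13.4 and 1.82 in traced replicates 1, 2 and 3 and 2.84 and 2.21 in the non-traced ones, and with it 24.98, 6.05 and 21.8 against 12.52 and 2.74, the last from 1 cell. Traced replicate 2 goes against the pooled order, with a lower G2/M sum in its 6 cells with Neurog3 (6.05) than in its 12 without (13.4), and S phase sums of 2.42 and 2.78. After thinning, 25.7% of cells with Neurog3 (12.49 to 43.3%, 35 cells) and 11.1% of those without (4.92 to 20.7%, 72 cells) had at least 3 G2/M genes; the intervals overlap. Stem marker transcripts stood at 6.13 to 9.68 per 10000 in the traced and at 3.65 and 8.96 in the non-traced enteroendocrine-like sums, and goblet marker transcripts at 14.2 to 27.1 and 6.54 and 14.03, with 0 of 6 stem and 0 of 3 goblet markers tested passing. Tnfrsf19 among the stem and Zg16 among the goblet markers were at 0 in the non-traced sums. Enteroendocrine marker transcripts stood at 355 to 664 per 10000 in the traced and at 602 and 1050 in the non-traced sums, with Nts at 0 in the traced. Of 16 such markers tested, 1 was higher and 0 were lower in traced cells, with a median log2 difference of -0.57. The part of these cells and of these marker levels in the result was not tested.

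**Figure D5:**
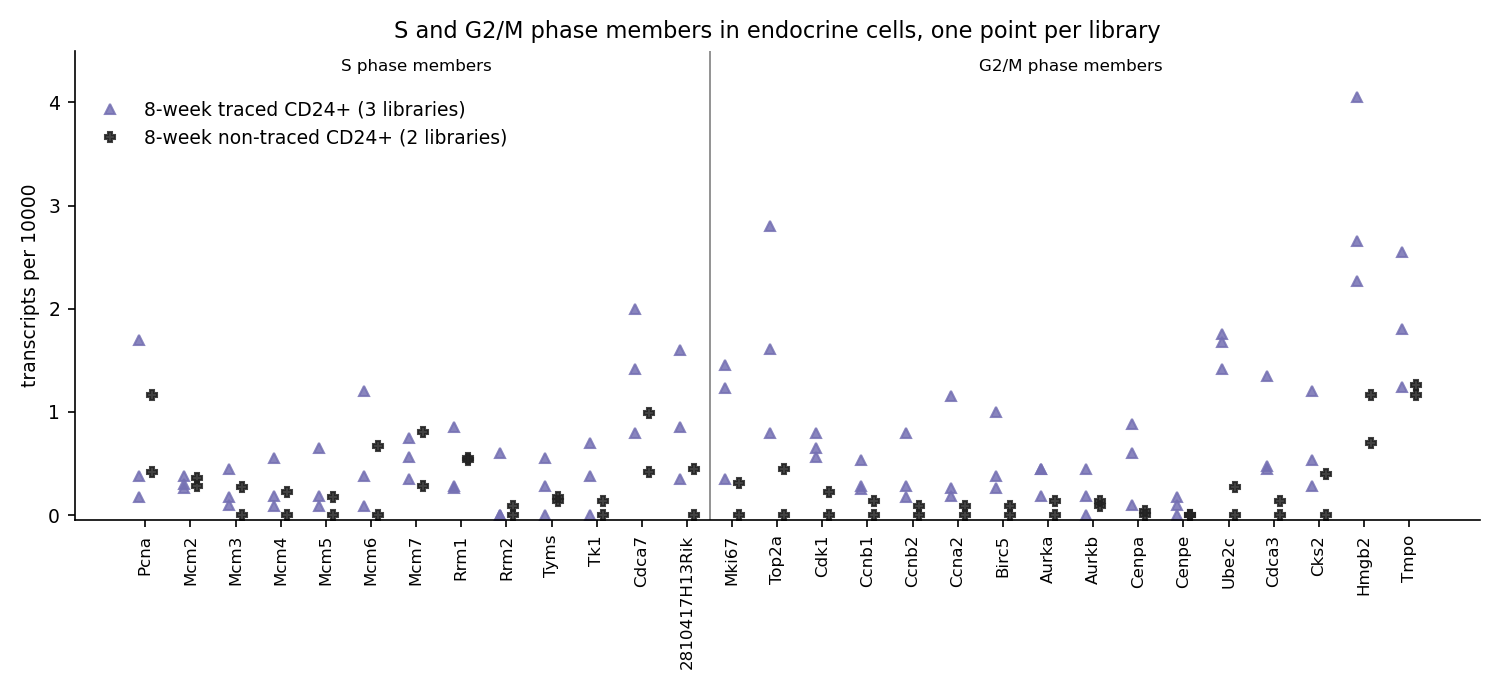
Level of members in the enteroendocrine-like cells of the 3 traced and 2 non-traced 8-week CD24+ libraries (transcripts per 10000, y axis; 1 point per library, genes on the x axis). For Ube2c the traced libraries lie at 1.42 to 1.75 and the non-traced ones at 0 and 0.269, while for Pcna the groups overlap.

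Time was followed by comparing the 5-day traced cells (5 libraries, 332 cells) with the 8-week traced CD24+ cells (3 libraries, 221 cells), where time, gate and the sex of the mice change together. Over all cells, 16 of the 32 genes were lower at 8 weeks (6 S phase, 8 G2/M and 2 growth-linked genes) and none was higher, where 17.1% of the 9995 genes tested were called lower and 17.3% higher. The median log2 differences were -0.49, -0.62 and -0.40 for the 3 groups of genes. Tk1, the kinase that salvages thymidine, stood at 0.701, 0.617 and 0.389 per 10000 in 8-week replicates 1, 2 and 3 and at 1.21, 1.40, 1.43, 1.42 and 1.69 in 5-day replicates 1 to 5, without overlap (log2 -1.37, SE 0.18, adjusted p = 2.54e-05). Mcm5 (0.69 ± 0.08 against 1.21 ± 0.13; log2 -0.86, adjusted p = 3.24e-04), Mcm6 (log2 -0.61, adjusted p = 0.00214) and Pcna (1.71 ± 0.39 against 2.90 ± 0.45; log2 -0.82, adjusted p = 0.00226) followed, also without overlap. Mki67 fell by 0.57 on the log2 scale (adjusted p = 0.0139), with values of 1.93, 1.82 and 1.07 against 1.87 to 2.55 that overlap. Cdca7 (-0.12, adjusted p = 0.617), Tmpo (-0.10, adjusted p = 0.554) and Tubb5 (-0.15, adjusted p = 0.459) had the largest adjusted p, and Top2a stood at 3.06, 4.20 and 1.56 against 1.35 to 2.64 (log2 0.35, adjusted p = 0.267). Tyms fell by 0.78 (adjusted p = 0.00666), and Rrm2 (-0.54, adjusted p = 0.0833), Cdk1 (-0.48, adjusted p = 0.113), Ccnb1 (-0.72, adjusted p = 0.062), Cenpa (-0.44, adjusted p = 0.175) and Hmgb2 (-0.30, adjusted p = 0.208) did not pass.

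Here too the make-up of the libraries moved. Stem-like cells were 25 to 53.3% and unclassed cells 8.82 to 31.1% of the 5-day libraries, against 21.7 to 29.9% and 1.45 to 6.15% of the 8-week traced CD24+ ones, and tuft-like cells were 0 to 1.59% against 20 to 23.2%. The part of this in the result was not tested. Replicate 3 of the 8-week libraries was the lowest for Tk1, Mki67 and Top2a, and without it 8 of the 32 were lower and 2 higher. Without barcodes 49 to 96 of 5-day replicate 4 the count was 17. Among the other lists, 12 of 32 replication genes and 13 of 47 spindle genes were lower at 8 weeks, and 0 and 2 were higher. Of 16 tested genes that halt the cycle, 6 were higher and 4 lower, with a median log2 difference of -0.27. Of all genes 17.3% were higher and 17.1% lower. Cdkn1a was higher (3.39 ± 1.28 against 0.61 ± 0.11 per 10000, log2 2.36, adjusted p = 1.71e-06). Trp53 was lower (0.42 ± 0.07 against 0.99 ± 0.19, log2 -1.26, adjusted p = 8.92e-05).

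Within stem-like cells alone (135 cells at 5 days, 60 at 8 weeks), 2 of the 32 genes were higher at 8 weeks and none was lower. Of the 7354 genes tested 5.48% were called higher and 5.68% lower, so a count of 2 in 32 is near the background. The median log2 difference was -0.01 for S phase and -0.06 for G2/M genes, against -0.01 for all genes. Cenpe stood at 0.876, 1.46 and 0.399 per 10000 in 8-week replicates 1, 2 and 3 and at 0.252, 0.244, 0.282, 0.376 and 0.323 in 5-day replicates 1 to 5, without overlap (log2 1.53, SE 0.33, adjusted p = 0.00252). Top2a stood at 5.16, 8.996 and 2.79 against 2.65, 3.87, 1.93, 2.51 and 2.46 and overlaps (log2 0.94, SE 0.24, adjusted p = 0.00975); without 8-week replicate 2, its highest library, 1 gene passed. Tk1 was at 1.06 ± 0.16 against 1.502 ± 0.18 (log2 -0.60, SE 0.20, adjusted p = 0.0545). Mcm7, Rrm1 and Ccnb2 had the largest adjusted p, with log2 differences of 0.02, -0.01 and -0.02 (adjusted p = 0.972, 0.991 and 0.977). Pcna (-0.21), Mcm5 (-0.07), Rrm2 (0.31), Tyms (-0.26), Mki67 (-0.18), Cdk1 (0.16), Ccnb1 (-0.13), Cenpa (0.03) and Hmgb2 (0.12) had adjusted p of 0.586 or more.

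Of the other cell cycle lists in stem-like cells, 0 of 31 replication genes passed, 2 of 46 spindle genes were higher, 2 of 11 G1 genes were higher and 1 lower, and 1 of 12 inhibitor genes was lower. With 5.48% of all genes higher and 5.68% lower and lists this short, nothing is read from these counts, and the genes are given by their values. Cdk4, the kinase partner of D cyclins, was lower at 8 weeks (1.46 ± 0.37 against 3.50 ± 0.42 per 10000; log2 -1.34, adjusted p = 1.96e-05) and Ccnd2 (4.72 ± 1.01 against 1.82 ± 0.46; log2 1.26, adjusted p = 4.70e-05) and Ccnd1 (log2 0.63, adjusted p = 0.0292) higher. The spindle genes were Cenpf (log2 1.11, adjusted p = 0.00419) and Kif11 (log2 0.96, adjusted p = 0.0297). Enterocyte markers were lower at 8 weeks in 7 of 7 genes tested, with sums of 5.20 to 5.74 per 10000 against 9.99 to 27.5, and Lct, Rbp2 and Sis at 0 at 8 weeks. Goblet markers were lower in 5 of 6, with sums of 0.933 to 3.45 against 1.74 to 16.2. Paneth markers were higher in 5 of 12. Their part in the results was not tested.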

How the data were processed

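Single cells of 13 libraries were sequenced by CEL-seq with 96 cell barcodes each, per the labels. BWA 0.6.2-r126 and mm10 are named in the submitters' processing notes; gene models and filters are not given in the sources used here. The deposited values, per library and in a combined table, are estimated counts: each of 3145187 values of 3145332 above 0 equals, within 1e-06, a whole number of the 256 molecular barcodes corrected for collisions by the authors, and 145 are saturated (no member). The combined table repeats 7 of the libraries and served to compare names.

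Cells with at least 3000 transcripts without spike-ins were kept (892 of 1248; 356 were left out). A class needed at least 3 markers and a summed marker level per 10000 above a cut (stem 10, Paneth 500, tuft 20, enteroendocrine 30, goblet 75, enterocyte 75). The cuts were set after marker levels were seen. A cell above the cuts of more than 1 mature class was left unnamed. A cell above the stem cut and 1 mature cut took the mature name. Doublets were not called. Counts were summed per library, or per library and class with at least 3 cells, rounded to whole numbers and tested across all genes with edgeR 4.0.16 in R 4.3.3 (quasi-likelihood F test, TMM, filterByExpr with a minimum count of 5 and a total of 10, Benjamini-Hochberg adjustment, threshold 0.05), with the library as a block between classes. Every adjusted p is from that test unless DESeq2 1.42.0 is named; standard errors are the log2 difference divided by the square root of F. Means ± SD are over libraries, in transcripts per 10000. The fits were tested on simulated data. Alternatives were DESeq2, other filters on counts and cells, other scalings and marker cuts, blocks, and leaving out each library.

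The members and the lists were chosen with earlier results of these data known. Given in full were Pcna, Mcm5, Rrm2, Tyms, Mki67, Top2a, Cdk1, Ccnb1, Cenpa, Hmgb2 and, in each comparison, the 3 members with the smallest and the 3 with the largest adjusted p; of other lists, those among the 3 smallest. Members named beside these were chosen after their values were seen. Spike-ins were 1.31 to 16.6% of counts. Binomial and Poisson intervals cover counting error only.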

Additional observations from a re-analysis of the deposited data

Results flagged for a closer look

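The library labelled 3-week non-traced CD24+ is in no test, and its members stood above those of the non-traced controls. Its S phase sum was 7.93 transcripts per 10000 over 50 cells, where the 8-week non-traced libraries had 6.64 and 6.68, and its G2/M sum was 23.6, where they had 8.61 and 13.4. Of its cells 18% were stem-like, 44% unclassed, 20% enterocyte-like and 4% tuft-like. Its name in the combined table goes against its label. A search for a library that stood apart needed 4 to 10 samples in a group, which only the 5-day traced group, with 5 libraries, had. In 26 checks no 5-day library stood far enough from the others to be named. The 3-week and 8-week groups had too few libraries to be checked.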

How the results depend on the processing

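The count of the 32 genes called moved by more than 1.5 times as follows. Stem-like against Paneth-like cells gave 13 with marker cuts halved, against 26. Traced against non-traced cells at 8 weeks gave 9, but 30 with no filter on low counts and 0 to 17 without 1 library. The 5-day and 8-week comparison gave 16, and 8 to 23 without 1 library. Within stem-like cells it gave 2, and 1 with DESeq2, 1 with a minimum count of 10, 1 with marker cuts doubled and 1 to 2 without 1 library. Within enteroendocrine-like cells it gave 1, and 0 with DESeq2, 0 with a minimum count of 10, 8 with no filter, 2 with marker cuts doubled, 8 with the round as a block and 0 to 3 without 1 library. Without 1 library the class comparisons gave 24 to 29 (Paneth-like), 25 to 32 (tuft-like) and 28 to 31 (enteroendocrine-like). DESeq2 called 23, 27 and 29 in these, 7 between traced and non-traced cells and 15 between 5 days and 8 weeks. Blocks by round, plain totals and the barcodes left out of 5-day replicate 4 were added after seeing the data. The causes were not tested.

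With the replicate number as a block the counts were 25 (traced against non-traced), 18 (5 days against 8 weeks), 2 (stem-like) and 9 (enteroendocrine-like). The group mean of each gene was taken from its log level, and what remained was correlated between same-numbered libraries. In the same order of comparisons, the values were 0.0749 and 0.105, then 0.0304, -0.0163 and 0.0556, then -0.0264, 0.00178 and -0.015, and then 0.219 and 0.141. The labels tie these libraries to nothing shared, so the numbers were not taken to pair them.

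Among named members 1334 results kept their side of the threshold, 54 gained and 51 lost a call, and no call turned its sign. Signs turned without a call for 11 of 15 named members within stem-like cells, 3 of 9 within enteroendocrine-like cells and 1 of 15 between 5 days and 8 weeks.

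Over all genes tested, stem-like against Paneth-like cells gave 902 higher and 702 lower; DESeq2 gave 253 and 581, a minimum count of 10 561 and 627, plain totals 4715 and 324, and halved cuts 118 and 231. Against tuft-like cells the numbers were 1199 and 1168, with DESeq2 871 and 660, and against enteroendocrine-like cells 1163 and 1297, with DESeq2 724 and 806. Traced against non-traced cells gave 136 and 233, with DESeq2 61 and 131, and with no filter 389 and 422. Stem-like cells at 8 weeks against 5 days gave 403 and 418, with DESeq2 224 and 250, with plain totals 557 and 281, and with doubled cuts 255 and 241. Enteroendocrine-like cells gave 5 and 1, with no filter 38 and 28, with the replicate block 48 and 60, and with the round as a block 42 and 52.

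Depth limits shares of cells. Without thinning, the shares with at least 3 S phase and at least 3 G2/M genes were 93.4 and 88.8% in stem-like, 84.7 and 90.1% in unclassed, 47.7 and 55.7% in goblet-like, 53.3 and 55% in Paneth-like, 33.3 and 33.3% in tuft-like, 22.2 and 27.8% in enteroendocrine-like and 22.9 and 31.4% in enterocyte-like cells.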
